A study of Mus musculus with 10 samples.

Results

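All 5 libraries of glioma endothelium that lacked a SoxF gene were compared with the 5 control libraries of the same study, as 1 common deletion effect over 10 of 10 libraries. The deficient libraries were labelled Sox7 ECKO (2 libraries, genotype Sox7-deficient) and Sox17 ECKO (3 libraries, genotype Sox17-deficient). The controls were labelled Sox7 control (2 libraries) and Sox17 control (3 libraries), and the arms shared no control library. A deficient library and the control with the same gene and number in its title form a set, which gave 2 Sox7 sets and 3 Sox17 sets. All mice had a C57BL/6 background and carried an intracranial glioma grown from injected mouse glioma cells, from which the endothelial cells were purified. The floxed Sox7 or Sox17 alleles were combined with Cdh5(BAC)-CreERT2, a transgene in which the promoter of the endothelial cadherin gene drives a recombinase that tamoxifen switches on. Experimental mice received 20 mg/kg tamoxifen into the peritoneum, per the series' design text. Whether the controls received tamoxifen or carried the recombinase is not given in the sources used here, so the deletion, tamoxifen and recombinase activity cannot be told apart in any difference below. The labels also do not say that libraries came from separate animals, so p-values reflect only how much these libraries varied, and that variation may be technical.

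Sox7, Sox17 and Sox18 make up the SoxF group of HMG-box transcription factors, which bind short AT-rich DNA motifs and act in the specification of arteries, veins and lymphatic vessels. They are known to stand in for each other in part, so that the loss of 1 member can be masked by the others. In the brain, endothelial cells also carry the blood-brain barrier, a programme of tight junctions and dedicated transporters that is often disturbed in glioma vessels. A comparison that pools both deletions asks which transcripts differ from control whichever of the 2 factors is lost.

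RNA was counted by 3′ tag sequencing, with total counts of 2082305 to 35068802 per library and 9735 to 15744 genes with a count. Of 23238 gene symbols found in all files, 13040 had enough counts to be tested and 10198 did not. Levels are given as CPM (counts-per-million of the scaled library size). The 22 pan-endothelial genes were abundant in each library and summed to between 20610 and 24080 CPM in controls and between 13770 and 27330 CPM in deficient libraries. The 19 macrophage and microglia markers summed to between 25.9 and 1150 CPM in controls, to 19870 CPM in Sox7-deficient 1 and to between 28.3 and 324.7 CPM in the other 4 deficient libraries. All 19 had a count in Sox7-deficient 1, and also in Sox7 control 1 and Sox17 control 3. By contrast, 15 of 19 were at 0 in Sox17 control 1, the library with the lowest total count, and 13 of 19 in Sox17-deficient 1. The 8 erythroid markers in the files summed to between 39.5 and 2910 CPM in controls and between 36.5 and 431.5 CPM in deficient libraries, and were lower in the deficient library of each of the 5 sets. In such bulk samples fewer cells of a type and less RNA per cell cannot be told apart.

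Sox7 (GRCm38 chromosome 14, 63943673 to 63950732) was scarce in both libraries labelled deficient for it. It measured 23.1 CPM in the control and 0.577 CPM in the deficient library of Sox7 set 1, counts of 193 and 4, and 5.9 CPM and 0.664 CPM in Sox7 set 2, counts of 64 and 5. In the Sox17 sets it measured 60.8, 16.6 and 35.1 CPM in controls and 101 CPM, 18.5 CPM and 55.7 CPM in deficient libraries. Deficient libraries were thus low in the Sox7 sets and at or above their controls in the Sox17 sets. Sox17 (chromosome 1, 4490931 to 4497354) measured 174, 90.1 and 93.4 CPM in the Sox17 controls and 1.93, 1.07 and 6.7 CPM in the Sox17-deficient libraries. In the Sox7 sets it was 116 and 268 CPM in controls and 58.9 and 290.2 CPM in deficient libraries. Sox18 (chromosome 2, 181669836 to 181671640) ranged from 68.6 to 618 CPM in controls and from 59.6 to 373.9 CPM in deficient libraries, and the groups overlapped. Averaged over the 5 sets on the log2(CPM + 1) scale, the difference was −0.89 ± 2.04 for Sox7, −3.17 ± 2.67 for Sox17 and −0.03 ± 1.5 for Sox18 (SD over sets, n = 5). The exact two-sided sign-flip permutation p was 0.5, 0.125 and 1, where 0.0625 is the smallest that 5 sets allow. This test cannot reach 0.05 with 5 sets, and the SD over sets was larger than the mean difference for Sox7 and Sox18 and smaller for Sox17. Each targeted gene was below its control in every library labelled deficient for it. Which exons were floxed is not stated, so where the 3′ tags lie relative to the deleted part is not known here.

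Over all 13040 genes, 0 passed an adjusted p of 0.05 for the common deletion effect in edgeR's quasi-likelihood test blocked by set (0% called, smallest adjusted p = 0.769). At an unadjusted p under 0.05 there were 432 genes (3.31% of those tested), 194 higher (1.49%) and 238 lower (1.83%). DESeq2 with the same block called 25 genes, 8 higher and 17 lower, with 970 at an unadjusted p under 0.05. Limma-voom called 0 with 760 under 0.05, and limma-voom with sample quality weights called 42, of which 36 were higher and 6 lower. Named after their values were seen, the 36 included Mrc1, Csf1r, Cx3cr1, Aif1, Itgam and Tyrobp of the macrophage and microglia markers. In the common edgeR fit the 18 tested markers of that list were split, 10 higher and 8 lower with a median of 0.12. The 1 marker at an unadjusted p under 0.05 was lower. Their summed level was higher in the deficient library of 2 sets and lower in 3. The common biological coefficient of variation was 0.899 after the set and deletion terms, so the difference between deficient and control library varied widely from set to set. In direction alone, 433 genes were higher in the deficient library of all 5 sets (3.32%) and 436 were lower in all 5 (3.34%). Together these were 6.66% of genes, where random signs over 5 sets give a share of 0.0625. In 26 genes all 5 deficient values lay above all 5 control values (0.199%), and in 47 genes they lay below (0.36%). The genes described next come from the 12 lower and the 12 higher genes with the smallest p among those that kept 1 direction in all 5 sets. The edgeR adjusted p in the common fit was 0.769 for Slc16a1 and 0.999 for every other gene named below, so their values are given as a description of levels in these libraries.

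The gene with the smallest p was Slc16a1 (chromosome 3, 104638668 to 104658462), which encodes the monocarboxylate transporter MCT1 that carries lactate and ketone bodies across the brain endothelium. Its control levels were 569, 185 and 500.5, 375 and 324 CPM in Sox7 sets 1 and 2 and Sox17 sets 1, 2 and 3, and the deficient levels were 240.3, 114, 117, 61 and 122 CPM. Every deficient library was below its own control, at 42.2%, 61.3%, 23.4%, 16.3% and 37.5% of it, while the groups overlapped because control 2 of the Sox7 arm was below Sox7-deficient 1. The mean was 391 ± 151 CPM in controls and 131 ± 66 CPM in deficient libraries (SD, n = 5 each), with a log2 fold change of −1.61 (SE 0.29, edgeR adjusted p = 0.769). Across the alternatives its adjusted p ran from 0.000119, when genes with few counts were kept, to 1. The value in the Sox17 arm was −2.05 and in the Sox7 arm −0.97, and the test of the difference between arms did not pass (edgeR adjusted p = 1).

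Plat (chromosome 8, 22757727 to 22782844) had the most even difference. It encodes tissue plasminogen activator, the endothelial protease that starts the breakdown of fibrin. Controls were at 440.3, 556, 554.5, 656 and 495.7 CPM in the same order of sets, and deficient libraries at 191, 296, 290.5, 308 and 256 CPM. All 5 deficient values lay below all 5 controls, and each was between 43.4% and 53.3% of its own control. The log2 fold change was −1.02 (SE 0.21), with −1.06 in the Sox7 arm and −0.99 in the Sox17 arm, and it stayed between −1.06 and −0.97 when each set was left out in turn. Prdm16 (chromosome 4, 154316125 to 154636873), a zinc-finger transcriptional regulator expressed in arterial endothelium, was also separated between groups. Its levels were 54.7, 106.5, 78.5, 100.3 and 42.4 CPM in controls and 29.9, 41.5, 34.7, 28.2 and 24.9 CPM in deficient libraries, a log2 fold change of −1.20 (SE 0.32). The deficient libraries were thus close together (31.8 ± 6.46 CPM, SD, n = 5) and the controls spread more widely (76.5 ± 27.9 CPM).

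**Figure D1:**
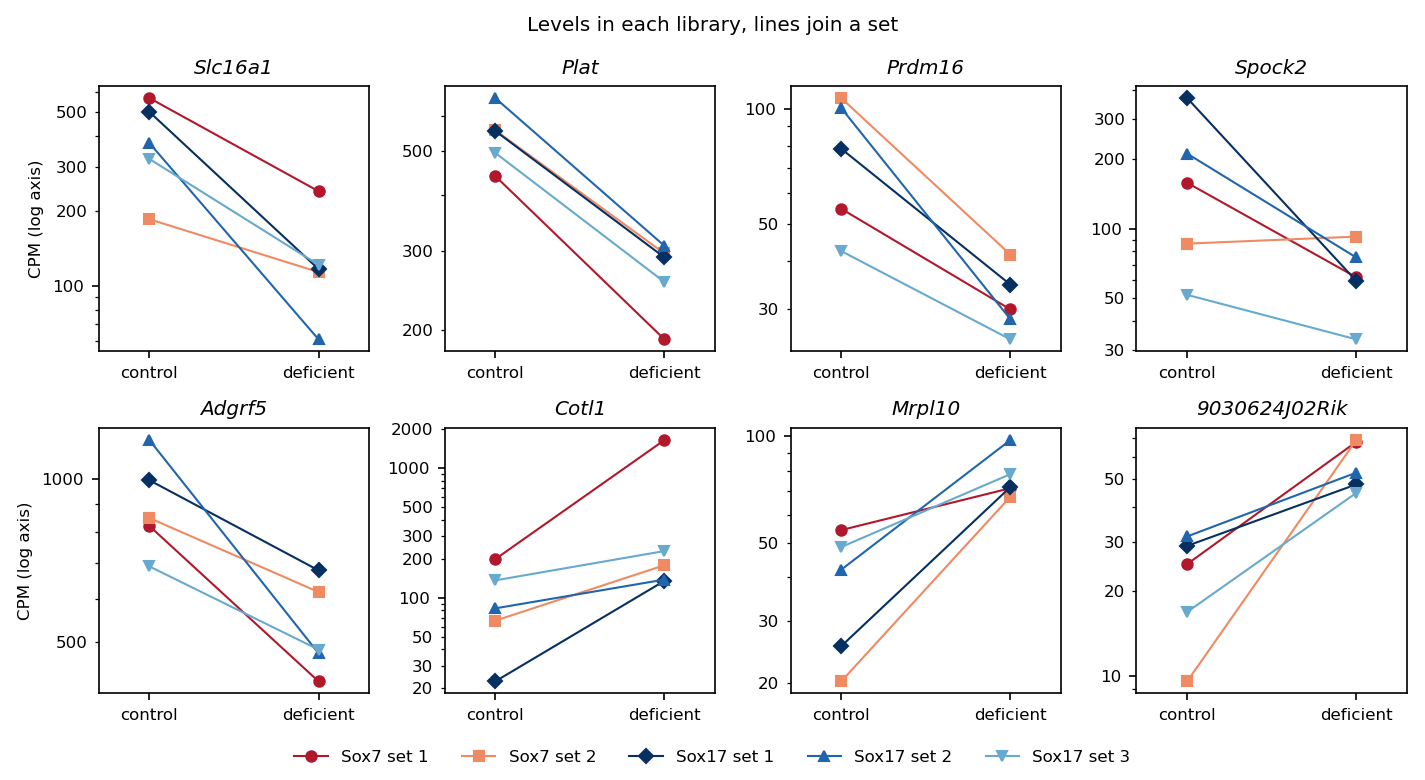
Levels of 8 genes in CPM on a log axis, with 1 line per set joining the control to the deficient library of that set. Plat, Prdm16, Adgrf5, Mrpl10 and 9030624J02Rik show 5 deficient values on 1 side of all 5 controls, whereas Slc16a1 and Cotl1 move the same way in each set but overlap between groups, and Spock2 is slightly higher in Sox7-deficient 2 (92.6 against 86.4 CPM).

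A further 3 of the 12 lower genes did not overlap between groups, beside 0.36% of all genes tested. Choosing genes by small p and 1 direction in all 5 sets favours such separation. Utrn, which encodes utrophin, a link between the actin cytoskeleton and the membrane, ranged from 345.4 to 536 CPM in controls and from 180 to 289.9 CPM in deficient libraries (log2 −0.89, SE 0.24). Syne1, which encodes nesprin-1, a spectrin-repeat protein of the nuclear envelope, ranged from 156 to 223 CPM and from 72.7 to 116 CPM (log2 −0.95, SE 0.25). Ccdc141, a coiled-coil protein gene, ranged from 270.4 to 364 CPM and from 106 to 225 CPM (log2 −0.92, SE 0.24). These ranges leave a gap between the lowest control and the highest deficient library in all 3 genes.

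The other 6 lower genes overlapped between groups while being lower in each set. Ddc (chromosome 11, 11814101 to 11898144) encodes aromatic L-amino acid decarboxylase, which makes dopamine and serotonin from their precursors and acts as an enzymatic barrier in brain vessels. It was at 149.7, 454 and 178, 268 and 91 CPM in controls and at 102, 339 and 28.1, 76.9 and 26.7 CPM in deficient libraries (log2 −1.44, SE 0.33). Its deficient library held 67.9% and 74.7% of the control level in the Sox7 sets and between 15.8% and 29.3% in the Sox17 sets, and the difference between arms was not called. Sema3c, a secreted semaphorin that guides vessels and axons, was at 38.8 and 102.9 CPM in Sox7-deficient libraries against 61.4 and 134 CPM, and at 46.4, 37.9 and 20.6 CPM in Sox17-deficient libraries against 172, 145 and 60.4 CPM (log2 −1.29, SE 0.32). Ebf1, a helix-loop-helix transcription factor, had a log2 fold change of −1.08 (SE 0.26), with means of 191 ± 95.3 CPM in controls and 87.1 ± 32.6 CPM in deficient libraries (SD, n = 5 each). Cdc42ep3, an effector of the small GTPase CDC42 that organises actin and septins, had −0.97 (SE 0.25), Nxpe4 −1.60 (SE 0.42) and Tmcc3 −0.94 (SE 0.26).

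**Figure D2:**
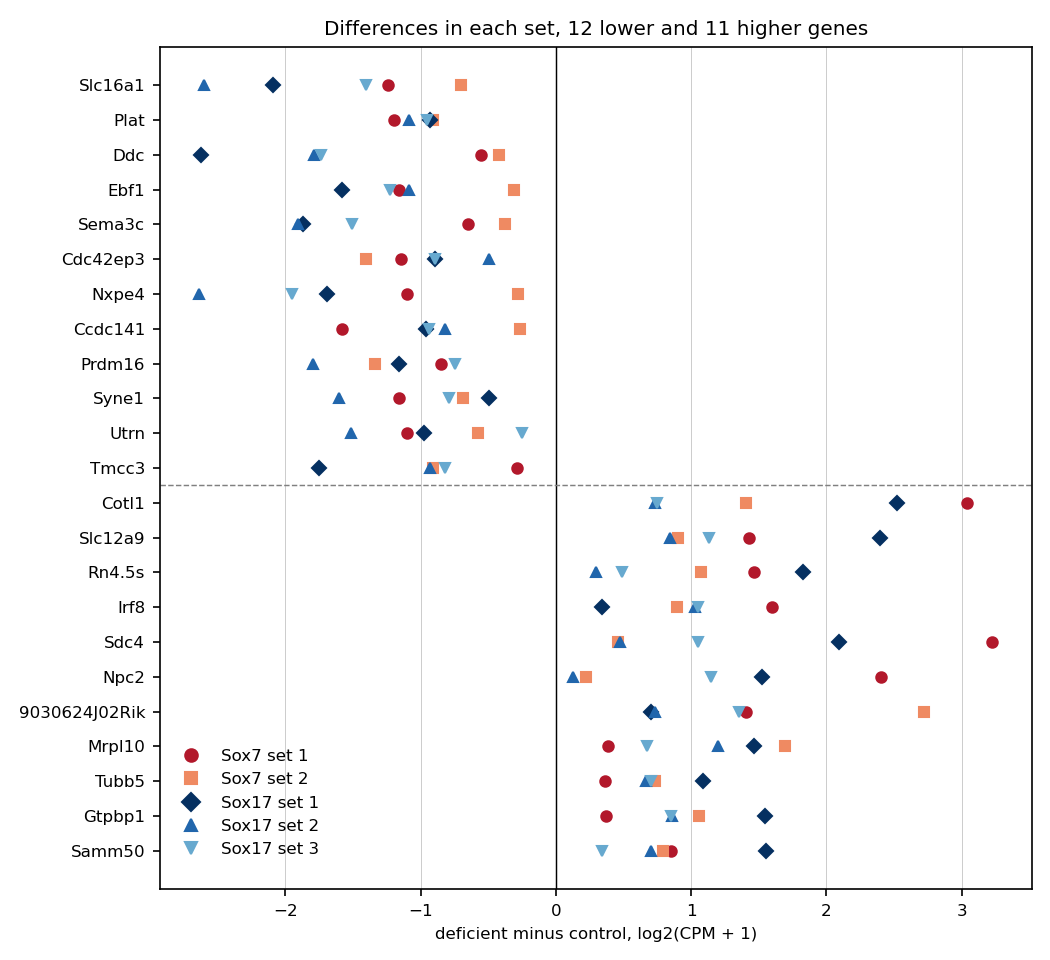
Difference of each deficient library from the control of its own set, on the log2(CPM + 1) scale, for the 12 lower genes and 11 of the 12 higher genes, 1 point per set. All points fall on the side of 0 that the choice of genes fixed, and Plat has the narrowest span of the lower genes (−1.20 to −0.91).

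Because SoxF proteins bind a short motif, the RefSeq promoter windows (GRCm38.p6, 250 bases before to 50 bases after a start site) of the 24 genes were searched on both strands for the core motif AACAAT, for the shifted motif ACAATG, and for the longer motif AACAAAG. The first 2 overlap, so a single run can hold both of them. For 3 genes 1 window each is shown: that of Slc16a1, which leads the lower genes and holds no match, and those of Ddc and Prdm16 that hold 1 run each, in capitals.
Slc16a1, chr3:104638414-104638713, plus strand, no match: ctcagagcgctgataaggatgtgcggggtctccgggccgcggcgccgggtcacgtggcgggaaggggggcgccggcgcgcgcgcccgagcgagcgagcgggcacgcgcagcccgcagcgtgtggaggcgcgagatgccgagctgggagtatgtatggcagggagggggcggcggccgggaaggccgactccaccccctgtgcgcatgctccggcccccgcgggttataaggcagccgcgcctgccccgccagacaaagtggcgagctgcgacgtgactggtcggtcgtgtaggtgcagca
Ddc, chr11:11890359-11890658, minus strand, both overlapping motifs on the reverse strand: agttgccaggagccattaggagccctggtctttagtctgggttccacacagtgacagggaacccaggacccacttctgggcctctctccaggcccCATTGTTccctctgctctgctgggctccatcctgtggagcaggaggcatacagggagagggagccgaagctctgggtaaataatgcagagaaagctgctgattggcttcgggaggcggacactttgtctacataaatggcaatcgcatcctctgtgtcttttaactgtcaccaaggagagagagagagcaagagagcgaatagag
Prdm16, chr4:154636824-154637123, minus strand, ACAATG: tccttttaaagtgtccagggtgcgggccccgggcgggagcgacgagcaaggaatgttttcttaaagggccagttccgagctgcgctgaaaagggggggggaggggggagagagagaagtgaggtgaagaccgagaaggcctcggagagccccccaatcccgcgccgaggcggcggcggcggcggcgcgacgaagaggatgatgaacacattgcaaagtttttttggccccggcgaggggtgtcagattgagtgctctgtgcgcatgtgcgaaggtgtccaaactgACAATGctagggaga
The Ddc run lies 155 to 149 bases before the start site of its window, and that of Prdm16 lies 36 to 41 bases after its own. The Ddc window shown lies inside the annotated gene. A further Ddc window, chr11:11898095-11898394, covers the 5′ end of the annotated gene and held no match. Of the 12 lower genes, 11 had a window in the table and 4 held a match in any window, which were Ddc, Prdm16, Syne1 and Tmcc3, or 5 of 20 windows. Of the 12 higher genes, 8 had a window and 1 held a match, Tubb5, in 1 of 9 windows. Among all 32544 windows of this length, 22.9% held at least 1 of the motifs, with AACAAT in 10.6%, ACAATG in 12.4% and AACAAAG in 5.8%. In the 20 windows of the lower genes ACAATG was found in 5, AACAAT in 2 and AACAAAG in 0. A match or its absence is a description of these letters only.

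The gene that led the higher side was Cotl1 (chromosome 8, 119809222 to 119840544), which encodes coactosin-like protein, a binder of filamentous actin that is abundant in myeloid cells. Its control levels were 199, 66.7 and 22.7, 83 and 136 CPM, and its deficient levels 1648, 178.5 and 135, 138 and 230 CPM. Each deficient library was above its control, by 8.29-fold in Sox7 set 1 and 1.67-fold to 5.96-fold in the others, and the groups overlapped. The log2 fold change was 1.68 (SE 0.35), and 1.34 without Sox7 set 1. Irf8, a transcription factor of the macrophage and dendritic lineages, was at 421 CPM in Sox7-deficient 1 against 138 CPM, and at 79.1 to 182 CPM in the other deficient libraries against 41.9 to 87.2 CPM (log2 1.00, SE 0.26; 0.84 without Sox7 set 1). Sdc4, a heparan sulphate proteoglycan of the cell surface, was at 517 CPM in Sox7-deficient 1 against 54.2 CPM and at 16.7 to 64.8 CPM in the other deficient libraries against 8.17 to 30.7 CPM (log2 1.47, SE 0.41; 1.04 without Sox7 set 1). Npc2, a lysosomal cholesterol carrier, had 1.08 (SE 0.32) and 0.75 without Sox7 set 1. For these 4 genes Sox7-deficient 1 was the highest of all 10 libraries, as it was for the summed macrophage markers (19870 CPM against 1150 CPM in its control). In Sox17 set 1 the same markers summed to 28.3 against 25.9 CPM. The 4 genes were higher there by 5.96-fold (Cotl1), 1.27-fold (Irf8), 4.66-fold (Sdc4) and 2.9-fold (Npc2). The control of that set had the lowest total count (2082305), with counts of 50 for Cotl1 and 18 for Sdc4, so its values carry wide errors. The part of macrophage transcripts in the differences of these 4 genes was not tested.

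Among the higher genes, Mrpl10 and 9030624J02Rik did not overlap between groups, beside 0.199% of all genes tested. The choice of genes favours such separation here too. Mrpl10 (chromosome 11, 97041560 to 97049213), a protein of the large subunit of the mitochondrial ribosome, was at 54.2, 20.2, 25.4, 41.9 and 48.6 CPM in controls and at 71.3, 67.4, 71.8, 97.6 and 78.2 CPM in deficient libraries. Its lowest deficient library was thus above its highest control, with a log2 fold change of 1.10 (SE 0.33). 9030624J02Rik ranged from 9.59 to 31.4 CPM in controls and from 44.8 to 69 CPM in deficient libraries (log2 1.42, SE 0.42). Tubb5, a beta tubulin, had a log2 fold change of 0.71 (SE 0.21), with means of 450.3 ± 120.2 CPM in controls and 730 ± 149.9 CPM in deficient libraries (SD, n = 5 each). Slc12a9, a member of the cation-chloride cotransporter family, had 1.35 (SE 0.34), Samm50, a subunit of the machinery that inserts barrel proteins into the mitochondrial outer membrane, 0.85 (SE 0.26), and Gtpbp1, a GTP-binding protein, 0.95 (SE 0.29). Rn4.5s, a small repeat-derived noncoding RNA, had 1.03 (SE 0.26), and its counts may be split among near-identical copies.

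Gene lists were read as counts and medians of log2 fold changes in the common fit, beside the 13040 genes tested, of which 6423 were higher and 6617 lower with a median of −0.01. All 25 tested blood-brain barrier genes had a negative log2 fold change, with a median of −0.51 that was −0.40 in the Sox7 arm and −0.62 in the Sox17 arm. Of these, 9 had an unadjusted p under 0.05 and 6 were lower in all 5 sets, beside 1.83% and 3.34% of all genes tested. None was called by edgeR, and the members and lists were chosen with earlier results of these data known. The median difference of the list in a set was −0.82 and 0.06 in Sox7 sets 1 and 2 and −0.53, −0.66 and −0.50 in Sox17 sets 1, 2 and 3, so Sox7 set 2 did not share it. Pan-endothelial genes had −0.88 and −0.15, and −0.11, 0.06 and 0.07 in the same order. In Sox7 set 1 the barrier genes were thus lower by about as much as the pan-endothelial genes. Besides Slc16a1, the genes of the list with the smallest p were Spock2 and Slc7a1. Spock2, a proteoglycan of the extracellular matrix enriched in brain endothelium, was at 159, 86.4 and 369, 212 and 51.8 CPM in controls and at 61.8, 92.6 and 59.6, 75.2 and 33.3 CPM in deficient libraries (log2 −1.20, SE 0.35), with Sox7 set 2 the exception. Slc7a1, a transporter of arginine and lysine, was lower in all 5 sets, with means of 498 ± 98.1 CPM in controls and 319 ± 72.4 CPM in deficient libraries (log2 −0.65, SE 0.22). Mfsd2a, a lipid transporter that restrains transcytosis at the barrier, was at 403 CPM in Sox7-deficient 2 against 243 CPM and below its control in the other 4 sets (log2 −0.56, SE 0.30).

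Other endothelial transcription factors were mostly lower as well. Of 26 tested, 20 were lower and 6 higher, with a median of −0.29. Of these, 5 had an unadjusted p under 0.05 and 5 were lower in all 5 sets, beside 1.83% and 3.34% of all genes tested. Their summed level, in which abundant members weigh most, ran from 8148 to 8816 CPM in controls and from 5448 to 7737 CPM in deficient libraries, without overlap. The geometric mean of the list did overlap, at 140.2 to 165.1 CPM in controls and 105.8 to 148.6 CPM in deficient libraries. Foxq1, a forkhead factor of brain endothelium, was lower in all 5 sets, at 590.4 ± 108 CPM in controls and 398 ± 150.1 CPM in deficient libraries (SD, n = 5 each; log2 −0.64, SE 0.23). Klf2, which responds to blood flow, had −0.64 (SE 0.28) and was higher in Sox7-deficient 2 only, at 942 CPM against 659 CPM.

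Arterial genes had a median of −0.84 over 20 tested members with 18 lower and 2 higher. Of these, 2 had an unadjusted p under 0.05 and 1 was lower in all 5 sets, beside 1.83% and 3.34% of all genes tested. Many of these genes had few counts and wide errors. The 2 were Unc5b and Hey1. Unc5b, a netrin receptor of arterial and tip endothelium, was at 411, 192 and 225, 390 and 161 CPM in controls and at 108, 161 and 56.4, 121 and 181 CPM in deficient libraries (log2 −1.15, SE 0.34). Hey1, a target of Notch signalling, was at 34.2, 46.4 and 109.8, 37.7 and 18.8 CPM in controls and at 9.81, 25.9 and 23.4, 4.83 and 21.5 CPM in deficient libraries (log2 −1.54, SE 0.51). In both genes Sox17 set 3 was the exception, with the deficient library above its control. Epas1, which encodes HIF-2α, was the member lower in all 5 sets (log2 −0.46, SE 0.22). Among 18 Notch pathway genes 12 were lower and 6 higher, with a median of −0.38, Hey1 the 1 with an unadjusted p under 0.05, and none in 1 direction in all 5 sets.

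Pan-endothelial genes had a median nearer 0. Of 22 tested, 16 were lower and 6 higher with a median of −0.18, which was −0.03 without Sox7 set 1, where the summed level was 13770 CPM against 24080 CPM. Adgrf5 (chromosome 17, 43360451 to 43459557), an adhesion G-protein-coupled receptor of endothelium, was the member with no overlap between groups. It was at 820, 848 and 996.5, 1183 and 689.7 CPM in controls and at 422, 618 and 678, 476 and 483 CPM in deficient libraries (log2 −0.76, SE 0.22). Ptprb, the endothelial phosphatase VE-PTP that restrains Tie2, was lower in all 5 sets (log2 −0.73, SE 0.25) with overlap between groups. Among 17 junction genes 15 were lower and 2 higher, with a median of −0.15 that was −0.03 without Sox7 set 1. The Wnt/beta-catenin target list had 10 lower and 7 higher of 17, with Fzd6, a Wnt receptor (log2 −0.72, SE 0.25), and Axin2, a feedback inhibitor (log2 −0.62, SE 0.31), lower in all 5 sets. Immediate early genes, the first to be transcribed after a stimulus, were lower in 16 of 18 with a median of −0.31, and of −0.54 without Sox17 set 1. Nr4a1, a nuclear receptor of that group, was lower in all 5 sets, at 781, 669 and 293, 671 and 572.5 CPM in controls and at 301, 480.3 and 249, 227 and 512 CPM in deficient libraries (log2 −0.76, SE 0.26).

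**Figure D3:**
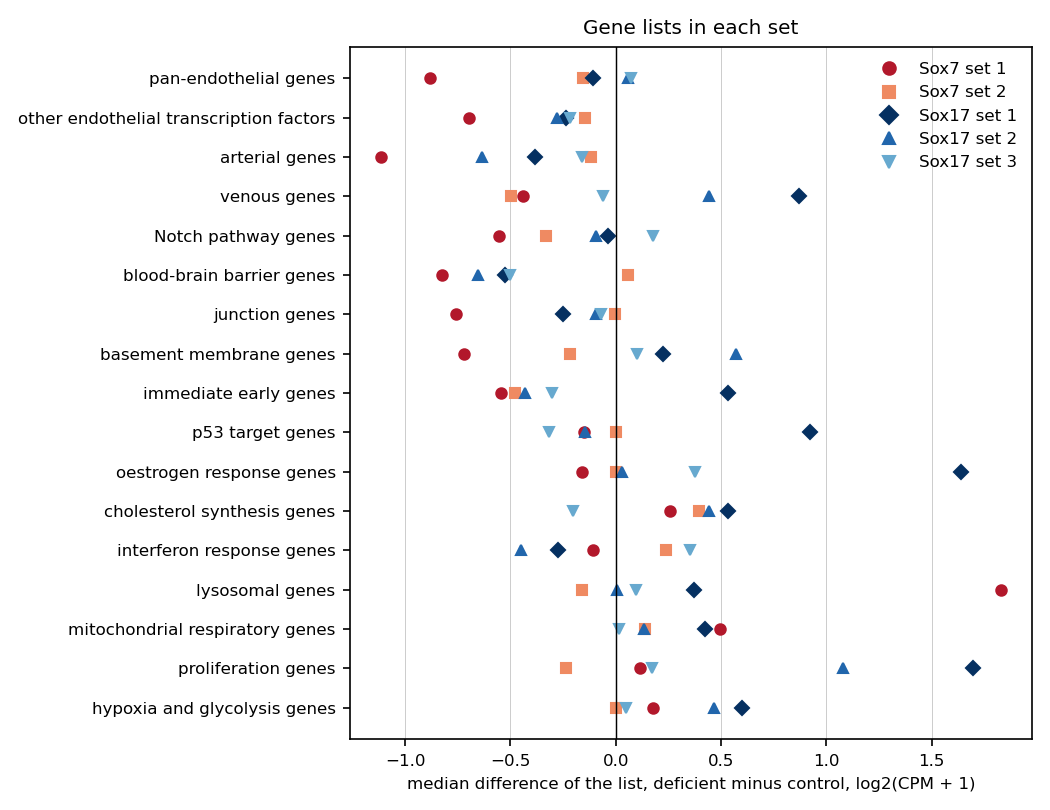
Median difference between deficient and control library in each set, on the log2(CPM + 1) scale, for 17 gene lists. Other endothelial transcription factors, arterial genes and junction genes lie below 0 in all 5 sets, the last at −0.005 in Sox7 set 2. Blood-brain barrier genes do so in 4 of 5 with Sox7 set 2 at 0.06, and the lysosomal point of Sox7 set 1 stands at 1.83.

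Several lists of general cell function lay on the higher side. Of 26 mitochondrial respiratory genes 21 were higher and 5 lower, with a median of 0.19. Of these, 2 had an unadjusted p under 0.05 and 4 were higher in all 5 sets, beside 1.49% and 3.32% of all genes tested. Their summed level was higher in the deficient library of each set, with a range of 2883 to 4384 CPM in controls and 3862 to 4453 CPM in deficient libraries. The 2 genes were Uqcrq, a subunit of respiratory complex III (log2 0.67, SE 0.26), and Atp5b, the catalytic beta subunit of ATP synthase (log2 0.68, SE 0.27). Without Sox7 set 1 the median of the list was 0.05, and without Sox17 set 1 Atp5b was 0.37. A set of 76 cytosolic ribosomal protein genes, picked by symbol after values of these data had been seen, had 73 higher and 3 lower. Their median was 0.36, with 12 at an unadjusted p under 0.05 and 12 higher in all 5 sets, beside the same 1.49% and 3.32%. The median was 0.29 in the Sox7 arm and 0.44 in the Sox17 arm. Reads of these genes may be shared with their processed pseudogenes.

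Lysosomal genes were higher in 20 of 24 with a median of 0.44, but 0.15 without Sox7 set 1, in whose deficient library the macrophage markers summed to 19870 CPM, against 28.3 to 324.7 CPM in the other 4 deficient libraries. Their part in the list median was not tested. Ctsd, the protease cathepsin D, measured 2010 CPM in Sox7-deficient 1 against 295.6 CPM, and between 157 and 283 CPM in the other deficient libraries against 134 to 237 CPM in their controls (log2 0.66, SE 0.36; 0.21 without Sox7 set 1). Proliferation genes were higher in 21 of 27 with a median of 0.44, which was −0.18 in the Sox7 arm and 1.02 in the Sox17 arm, and 0.22 without Sox17 set 1. Cdk1, the kinase that drives entry into mitosis, was at 64.9 CPM against 103.5 CPM in Sox7 set 2 and above its control in the other 4 sets (log2 0.71, SE 0.34). Ccna2, its cyclin partner, was higher in all 5 sets at low levels of 1.57 to 16.9 CPM in controls and 12.9 to 31.8 CPM in deficient libraries (log2 1.68, SE 0.84). Among 22 hypoxia and glycolysis genes 16 were higher and 6 lower, with a median of 0.31. Hk2, a hexokinase that starts glycolysis, was at 444 CPM in Sox7-deficient 1 against 31.4 CPM, and lower than control in Sox17 set 2, at 5.59 against 14.7 CPM (log2 2.01, SE 0.80).

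Since the deficient mice were given tamoxifen, lists tied to the drug and to recombinase activity were read separately. Tamoxifen binds oestrogen receptors and inhibits late steps of cholesterol synthesis, and a recombinase can cut DNA and evoke the p53 and interferon responses. Of 25 p53 targets 10 were higher and 15 lower, with a median of −0.21. Gdf15, a stress-induced secreted factor and p53 target, was the only one of the 25 at an unadjusted p under 0.05. It was at 21.8, 4.61 and 0.454, 2.45 and 7 CPM in controls and at 159, 5.57 and 7.98, 4.43 and 31 CPM in deficient libraries (log2 1.89, SE 0.63), higher in each set and overlapping between groups. Phlda3, another p53 target, was higher in 4 of 5 sets (log2 1.10, SE 0.61), and Plk2 was lower in all 5 (log2 −0.43, SE 0.22). Of 20 DNA repair genes 8 were higher and 12 lower with a median of −0.42, and none had an unadjusted p under 0.05. In single arms the median of the repair genes was −0.24 (Sox7) and 0.29 (Sox17), so its sign was not shared.

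Oestrogen response genes were split 9 higher and 5 lower with a median of 0.13. Igfbp4, an oestrogen-induced binding protein of insulin-like growth factors, was at 354, 436 and 1371 CPM in Sox17 controls and at 1439, 1421 and 2012 CPM in Sox17-deficient libraries. In the Sox7 sets it was lower in the deficient libraries, at 524.5 and 601 CPM against 685.5 and 1016 CPM, and the test of the difference between arms gave an edgeR adjusted p of 0.604. Cholesterol synthesis genes were split 11 higher and 11 lower with a median of 0.14. In all 5 sets 4 of 22 were higher, beside 3.32% of all genes tested. Mvd, an enzyme of the mevalonate pathway, had 0.92 (SE 0.43), and Srebf2, the transcription factor that controls the pathway, 0.48 (SE 0.25). Interferon response genes were split 10 higher and 14 lower with a median of −0.06. Bst2, an interferon-induced membrane protein that tethers virus particles, was the 1 with an unadjusted p under 0.05 and was higher in all 5 sets (log2 0.46, SE 0.21). None of these 5 lists had a member called by edgeR.

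How far the 2 deletions shared an effect was read gene by gene from a fit with 1 term per arm. Over 13040 genes the correlation between the Sox7 and the Sox17 log2 fold changes was −0.04 (Pearson) and −0.01 (Spearman), and 50.7% of genes had the same sign. At 10 CPM or more the values were −0.06, 0.02 and 51.7% over 8320 genes. These are correlations across genes, which are not independent replicates, and all of the genes share the same 10 libraries. Of the variation of log2(CPM + 1) over the genes tested, 12.38% lay between arms, 38.79% between sets of 1 arm, 9.81% in the common deletion term, 9.92% in the term by which the arms differ and 29.1% in the residual. Per degree of freedom, the common deletion term (9.81%), the term by which the arms differ (9.92%) and the residual (9.7%) were alike in size.

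**Figure D4:**
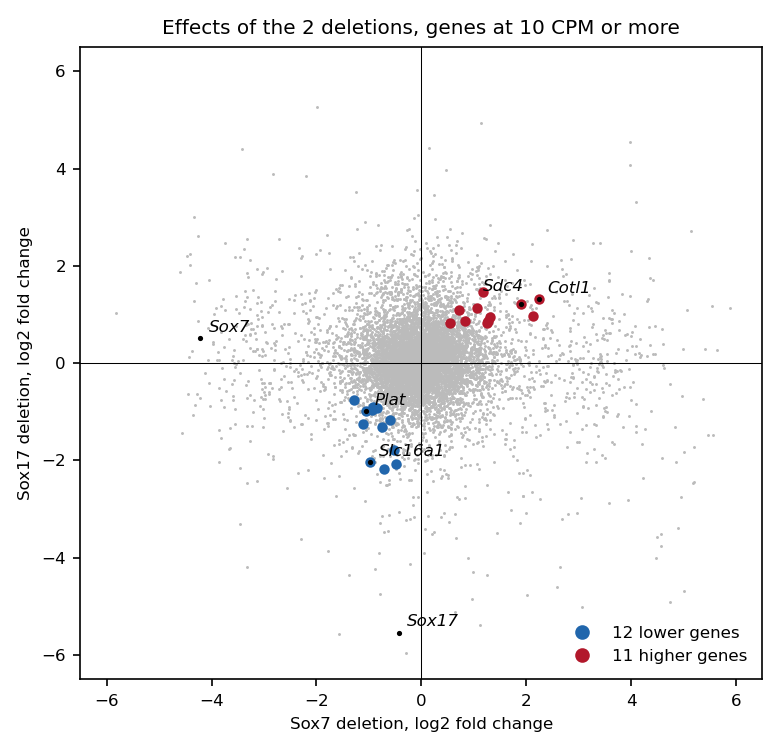
Log2 fold change after Sox17 deletion against that after Sox7 deletion for genes at 10 CPM or more, with the 12 lower genes and 11 of the 12 higher genes in colour and 8 of 8320 genes beyond the axes. The grey cloud shows no slope (Pearson −0.06), the coloured genes lie in the lower left and upper right by choice, and Sox7 and Sox17 lie near 1 axis each.

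The test of the difference between arms called 3 genes in edgeR (0.023% of 13040, 366 at an unadjusted p under 0.05). The count was 6 without Sox7 set 1, 10 without Sox7 set 2 and 1 without Sox17 set 1, and 0 with a stricter filter on low counts. Sox17 was 1 of them, with a log2 fold change of −0.43 (SE 0.57) in the Sox7 arm and −5.54 (SE 0.58) in the Sox17 arm and a difference of 5.11 (SE 0.81, edgeR adjusted p = 0.047). Sox7 itself differed by −4.74 (SE 1.08) but was not called (edgeR adjusted p = 0.391). The others were Ms4a6c and Cd72, genes of the immune cell surface. Ms4a6c was at 23, 0.092 and 0, 18.7 and 4.65 CPM in controls and at 531, 8.23 and 0.138, 0.395 and 0.248 CPM in deficient libraries. Cd72 was at 14.3 CPM against 367 CPM in Sox7 set 1, at 0 in both libraries of Sox7 set 2 and Sox17 set 1, and at 7.51 and 1.42 CPM in the controls against 0 in the deficient libraries of Sox17 sets 2 and 3. Fitted differences of 9.69 for Ms4a6c and 13.49 for Cd72 depend on the prior count added to libraries at 0 and are not bounds. Both genes were highest in Sox7-deficient 1, the library with 19870 CPM of macrophage markers, and neither was called for the common effect (log2 0.51, SE 3.56, and −3.03, SE 4.75). The part of macrophage transcripts in these 2 calls was not tested.

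Haemoglobin transcripts, which come from red blood cells, were among the lower genes with the smallest p of the marker lists. Hba-a1 was at 125, 14.8 and 2356, 130 and 51.8 CPM in controls and at 82.3, 8.1 and 300.2, 49.8 and 39.8 CPM in deficient libraries (log2 −1.22, SE 0.34), and Hbb-bs had a log2 fold change of −1.48 (SE 0.39). Each library pair differed in the same direction for Hba-a1 while Hbb-bs was 57.3 against 54.8 CPM in Sox7 set 1. Their near-identical copies make the counts of single globin genes uncertain. Rgs5, a pericyte marker, was at 206 CPM against 58.2 CPM in Sox7 set 2 and below its control in the other 4 sets (log2 −0.95, SE 0.62), and the 10 pericyte markers summed to between 293 and 871 CPM in controls and between 221 and 707.5 CPM in deficient libraries.

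Gene length, which the comparison had not used, was looked at after the values of these genes were seen. In the GENCODE annotation the 12 lower genes had a median genomic span of 199.4 kb, against 19.3 kb for the 10 higher genes with a length and 23.3 kb for all genes tested. Syne1 (530.6 kb), Utrn (487.2 kb), Ebf1 (390.8 kb) and Prdm16 (320.7 kb) were the longest, while Slc16a1 (19.8 kb), Cdc42ep3 (21.4 kb) and Plat (25.1 kb) were near the median of all genes. The genes at 10 CPM or more with a length (8055 genes, 96.8%) were split into 5 equal groups by span, and the median log2 fold change was 0.17, 0.10, 0.02, −0.02 and −0.16 from the shortest to the longest group. The shortest group lay above the longest in each of the 5 sets, by 0.22 against −0.29 in Sox7 set 1 and by 0.02 against −0.11 in Sox7 set 2. Spearman's rho across genes was −0.20 for the common effect and between −0.22 and −0.04 in single sets, a weak relation over genes that share the same libraries. With the spliced length of the longest transcript in place of span, rho was −0.224 for the common effect and between −0.249 and −0.044 in single sets. The relation is thus not particular to genomic span. Ribosomal protein genes had a median span of 3.3 kb, mitochondrial respiratory genes 7.2 kb and blood-brain barrier genes 29 kb. The part of gene length in the differences above was not tested.

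**Figure D5:**
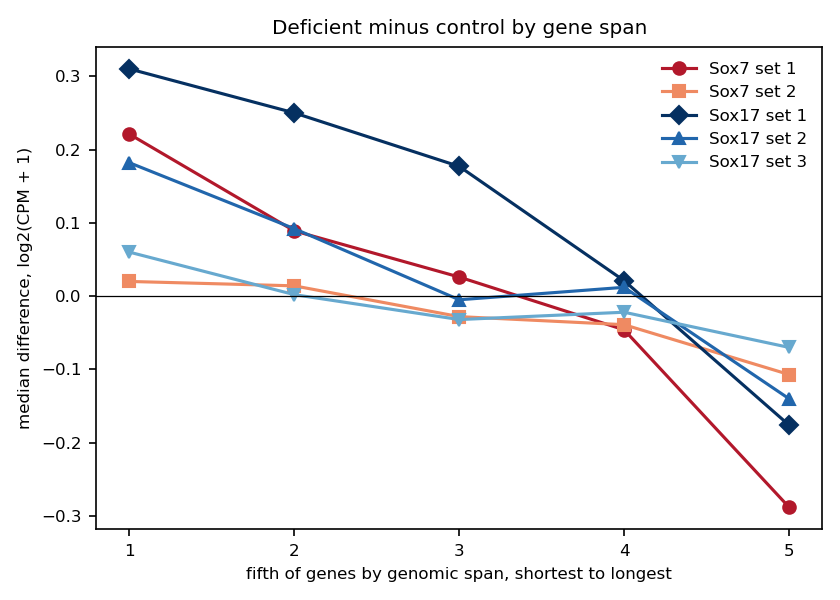
Median difference between deficient and control library on the log2(CPM + 1) scale, for genes at 10 CPM or more in 5 equal groups by genomic span, 1 line per set. In all 5 sets the group of the longest genes (69.7 kb or more) lies below the group of the shortest genes (up to 8.37 kb), from 0.31 to −0.18 in Sox17 set 1 and from 0.06 to −0.07 in Sox17 set 3.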

How the data were processed

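The deposited files held 1 whole-number read count per gene symbol and library, not normalised. Bowtie2, edgeR and the mouse build mm10 are named without version or role per the submitters' processing notes. The counting tool, its strand setting and the annotation are not given in the sources used here, so overlapping and antisense genes cannot be told apart. Libraries were made from 500 ng of total RNA with the Lexogen QuantSeq kit per the labels' protocols, and no molecular identifiers are mentioned, so floors cover counting error only. A floor of 3 counts corresponded to between 0.0855 and 1.44 CPM, depending on the library.

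The 1183 symbols present only in the Sox17 files (24421 symbols against 23238) were left out, and repeated lines of a symbol were summed (35 symbols in each Sox7 file, 43 in each Sox17 file). Counts were fitted in R 4.3.3 with edgeR 4.0.16 (TMM scaling, filterByExpr, robust quasi-likelihood F-test) with a term per set and 1 deletion term over all 10 libraries, which left 4 residual degrees of freedom. A second fit with a deletion term per arm gave the arm effects and their difference. P-values were adjusted over all genes tested by the Benjamini-Hochberg method, with a threshold of 0.05. The SE of a log2 fold change is its size over the square root of the F statistic. CPM refers to TMM-scaled library sizes, and differences per set use log2(CPM + 1). The set numbers were taken to pair the samples because shared run labels in the descriptions tie the members of 4 of 5 sets, Sox17 set 1 carrying none. The correlation of paired deviations over genes was 0.193 in both Sox7 sets and 0.12, 0.091 and 0.09 in Sox17 sets 1, 2 and 3. Deviations from the mean of 2 libraries mirror each other, so the 2 Sox7 values are equal by arithmetic and count as 1. Scripts were tested on simulated counts.

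Alternatives were DESeq2 1.42.0, limma-voom (limma 3.58.1) with and without quality weights, no replicate block, other filters, scaling and pseudocounts, equal weight of the arms, Rn45s left out and each set left out. Genes are named by a rule: the 12 higher and 12 lower genes with the smallest p and 1 direction in all sets, the SoxF genes, up to 3 members per list by p, and genes called between arms. Of those, the text gives 64, and some genes are not reported here. The comparison, the 29 gene lists and the 16 marker lists were chosen with earlier results of these data known. Positions and lengths come from GENCODE vM21 on GRCm38, promoter windows from RefSeq on GRCm38.p6.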

Additional observations from a re-analysis of the deposited data

Results flagged for a closer look

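The effect of deletion differed between the arms, by the test of that difference in edgeR, for 3 genes: Sox17 by 5.11, Ms4a6c by 9.69 and Cd72 by 13.49 on the log2 scale (Sox7 arm minus Sox17 arm). Sox17 is the gene targeted in 1 arm, and the other 2 were highest in Sox7-deficient 1.

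In 3 of 64 genes checked, 1 set stood apart from the other 4, where chance gives about 5%. Ctsd differed by 2.761 in Sox7 set 1. Mvd differed by 1.928 and Atp5b by 1.952 in Sox17 set 1, whose control had the lowest total count (2082305).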

How the results depend on the processing

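The common deletion effect called 0 genes in edgeR with no replicate block, with other size factors, with a stricter filter, without Rn45s and without each set in turn. It called 3 genes without a filter (Slc16a1, Cotl1 and Ddc), 25 with DESeq2, 42 with limma-voom with quality weights and 1 (Sox17) with the arms weighted equally. With no replicate block, 331 genes had an unadjusted p under 0.05 against 432 with it, and no call of the common effect changed. The difference between arms called 0 genes with no replicate block, a stricter filter and both forms of limma-voom, 24 without a filter, 40 with DESeq2, and between 1 and 10 when each set was left out. Genes in 1 direction in all sets numbered between 1486 and 1864 when 4 sets were left, since fewer sets must share a sign. Reversed signs came in 4 of 64 genes: Ms4a6c (−1.70 with no replicate block, −2.22 to 3.01 without single sets), Cd72 (3.16 with limma-voom, 4.08 with quality weights, −7.25 to 1.42 without single sets), Sox7 (0.25 with limma-voom, 0.083 with quality weights) and Sox18 (−0.64 to 0.30 without single sets). The cause was not tested. Of 894 alternative values for named genes, 865 kept direction and side of the threshold, 19 passed it and 10 reversed. List medians under alternatives chosen after seeing the data kept their sign, with ranges over left-out sets of −0.68 to −0.38 for barrier, −0.93 to −0.56 for arterial, −0.32 to −0.03 for pan-endothelial, −0.30 to −0.03 for junction, 0.15 to 0.63 for lysosomal, 0.05 to 0.22 for mitochondrial and 0.22 to 0.71 for proliferation genes. With 2 Sox7 sets, and 2082305 counts in Sox17 control 1, genes of low level were measured with wide errors.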

Other observations

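In several lists the medians of the arms had opposite signs and the common median lay near 0, and 3 lists of endothelial genes are described here. Interferon response genes (−0.058 in common) and smooth muscle markers (0.025 in common) were also of this kind. Some lists with opposite signs had a common median further from 0, such as DNA repair genes (−0.42) and proliferation genes (0.44). Venous genes had a median of −0.56 in the Sox7 arm and 0.43 in the Sox17 arm (0.02 in common), and basement membrane genes −0.46 and 0.23 (common median within 0.01 of 0). Tip cell and tumour endothelium genes had −0.64 and 0.06 (−0.06 in common). No member of the venous, basement membrane and tip cell lists was called by edgeR in the common fit or between arms. The differences between arms were thus not shown to exceed the spread. Flow-responsive genes had 10 lower and 3 higher of 13, with Edn1, which encodes the vasoconstrictor endothelin-1, lower in all 5 sets (log2 −0.48, SE 0.22). Hmox1, a haem-degrading enzyme of that list, was higher in 4 of 5 sets (log2 1.06, SE 0.41). Car4, a carbonic anhydrase of capillary and venous endothelium, was lower in all 5 sets (log2 −0.63, SE 0.23). The edgeR adjusted p was 0.999 for these 3 genes.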
